A study of Caenorhabditis elegans with 2 samples.

Results

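The neuropeptide receptor genes examined here are the protein-coding genes whose symbol is npr, frpr, dmsr or ckr followed by a number in Ensembl release 115 (assembly WBcel235, the same as ce11). They were chosen by symbol alone and numbered 81 of the 19973 protein-coding genes on the 6 nuclear chromosomes, with 43 npr, 20 frpr, 16 dmsr and 2 ckr genes. They were read in a chromatin immunoprecipitation sequencing (ChIP-seq) experiment on whole late embryos of Caenorhabditis elegans hermaphrodites, strain OP173, which stably expresses UNC-42 with GFP-FLAG at its C terminus. Embryos were collected 3 hours after synchronisation by egg bleaching, and there were 2 biological replicates of this 1 group, so no comparison between conditions was possible. The labels disagree on the antibody, since the description gives one against GFP and the antibody field gives unc-42, and which was used was not settled here. The promoter behind the tagged protein is not given in the sources used here, and no sample without the tag was analysed, so the peaks are not separated here from those that would arise without tagged UNC-42. Because whole embryos were used, the peaks also do not tell in which cells a site was occupied.

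Neuropeptide receptors are mostly G protein-coupled receptors that sense short peptides released from dense-core vesicles, and they let neurons signal over a distance without a synapse. The npr genes are named as neuropeptide receptors, the frpr genes for FMRFamide-type peptides, the dmsr genes for likeness to the Drosophila myosuppressin receptor, and the ckr genes for likeness to the cholecystokinin receptor. UNC-42 is a homeodomain transcription factor needed for the identity of several classes of sensory, inter- and motor neurons, including command interneurons of locomotion. Homeodomain proteins commonly contact sites with the core TAAT.

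The sites that the strongest and most telling peaks marked are printed here as DNA on the plus strand of WBcel235 (RefSeq sequence), 201 bases centred on the summit, the base of highest signal within a peak. Shown are the strongest summit of dmsr-4 (chrII:354581-354781), npr-4 (chrX:12549149-12549349), npr-9 (chrX:11328819-11329019) and npr-13 (chrV:14854377-14854577), the genes with the highest signals. Added are those of dmsr-1 (chrV:11437519-11437719), a receptor gene with a known role in sleep, and npr-42 (chrII:4277062-4277262). The latter was the 1 receptor gene with the palindrome TAATNNNATTA of homeodomain cores, where N is any base, within 100 bp of an optimal summit. Capitals mark TAAT on either strand, so ATTA is in capitals too.
dmsr-4: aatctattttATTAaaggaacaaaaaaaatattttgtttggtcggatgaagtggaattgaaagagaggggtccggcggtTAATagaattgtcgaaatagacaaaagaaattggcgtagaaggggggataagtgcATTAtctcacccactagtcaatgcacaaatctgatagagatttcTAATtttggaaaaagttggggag
npr-4: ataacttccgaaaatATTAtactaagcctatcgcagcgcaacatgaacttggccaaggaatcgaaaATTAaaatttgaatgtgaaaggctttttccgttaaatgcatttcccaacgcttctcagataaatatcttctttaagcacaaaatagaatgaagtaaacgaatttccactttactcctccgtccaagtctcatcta
npr-9: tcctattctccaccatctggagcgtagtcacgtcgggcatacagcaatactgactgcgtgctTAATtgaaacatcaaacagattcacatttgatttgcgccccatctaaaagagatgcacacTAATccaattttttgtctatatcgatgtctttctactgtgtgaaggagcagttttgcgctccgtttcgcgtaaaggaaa
npr-13: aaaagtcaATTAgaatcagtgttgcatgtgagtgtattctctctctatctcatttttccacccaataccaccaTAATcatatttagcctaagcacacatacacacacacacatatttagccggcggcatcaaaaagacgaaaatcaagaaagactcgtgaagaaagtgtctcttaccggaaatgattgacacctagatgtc
dmsr-1: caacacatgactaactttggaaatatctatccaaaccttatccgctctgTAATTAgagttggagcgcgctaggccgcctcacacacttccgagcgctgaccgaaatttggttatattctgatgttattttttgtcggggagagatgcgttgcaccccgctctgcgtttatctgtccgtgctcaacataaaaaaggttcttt
npr-42: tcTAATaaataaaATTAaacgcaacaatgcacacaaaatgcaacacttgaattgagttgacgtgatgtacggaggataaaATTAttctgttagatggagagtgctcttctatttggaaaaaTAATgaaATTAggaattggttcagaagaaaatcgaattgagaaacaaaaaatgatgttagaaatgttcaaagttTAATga

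The dmsr-4 window held 4 cores, those of npr-4, npr-9, npr-13 and dmsr-1 held 2 each, and the npr-42 window held 6. In the npr-42 window a core and its mirror image stood 3 bases apart (TAATNNNATTA), from 21 to 31 bases to the right of the summit. In the dmsr-1 window the cores overlapped as TAATTA, from 51 to 46 bases to the left of the summit. The npr-13 window held GAGAGAGA on the minus strand, from 63 to 56 bases to the left of the summit.

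A gene was counted as bound when the summit of an optimal peak lay in its body or in the 2000 bp upstream. Optimal peaks are the 4780 peaks that passed the authors' threshold on the irreproducible discovery rate (IDR), a measure of whether a peak keeps its place in both replicates. Of the 81 receptor genes 19 were bound, which is 23.5% (95% exact Clopper-Pearson interval 14.8 to 34.2%). Among all protein-coding genes 3917 were bound by the same rule, 19.6%, which lies inside that interval, so the share of receptor genes was near the background. The intervals treat genes as independent and cover counting error only.

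**Figure D1:**
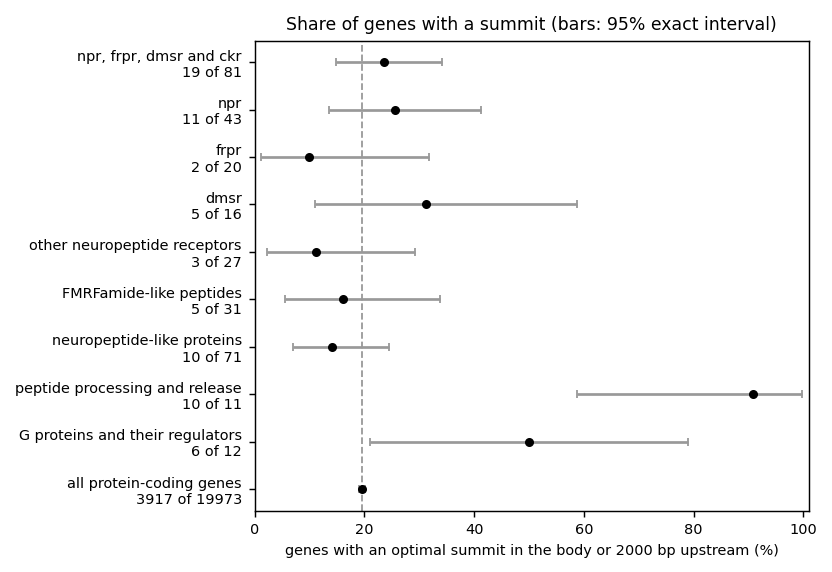
Share of genes with an optimal summit in the gene body or 2000 bp upstream (x axis, percent), with the number bound and the number of genes under each name. Points are shares, bars are 95% exact intervals, and the dashed line is the 19.6% of all protein-coding genes. The interval of the receptor genes, 14.8 to 34.2%, spans that line. Of the 11 peptide processing and release genes, a list chosen with earlier results of these data known, 10 were bound. The ckr genes are not drawn alone.

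The families differed in their counts, but all counts were small. Of the npr genes 11 of 43 were bound (25.6%, interval 13.5 to 41.2%), and of the dmsr genes 5 of 16 (31.2%, interval 11 to 58.7%). Of the frpr genes only frpr-14 and frpr-17 were bound, 2 of 20 (10%, interval 1.23 to 31.7%). Without replicate 2, the highest-signal regions of replicate 1 were used, as many as there are optimal peaks and without an IDR threshold. The frpr count was then 4 of 20 (20%, against 19.3% of all protein-coding genes). It was 0 among the 2390 strongest optimal peaks (against 11% of all protein-coding genes). Of the ckr genes ckr-1 was bound and ckr-2 was not. Every one of these intervals includes the 19.6% of all protein-coding genes, so no family was set apart from the background at this number of genes. The dmsr genes split by number in a way seen only after the values were known. Of dmsr-1 to dmsr-7, 5 of 7 were bound, and of dmsr-8 to dmsr-16, 0 of 9, beside the 19.6% of all protein-coding genes. Of the latter, dmsr-9 to dmsr-16 lie together at chrV:6798151-6828886, so they are not separate regions of the genome. All 9 of the higher-numbered genes lie on chromosome V, where 11.6% of all protein-coding genes were bound. The median length of these 9 genes was 1681 bp (1227 to 3929 bp), against 8847 bp (2875 to 15548 bp) for the lower-numbered ones, so the ranges overlap. Over all protein-coding genes 12.6% of those from 1216 to 2027 bp were bound, and 34.1% of those of 3637 bp or more. The part of gene length in this split was not tested.

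The 19 bound genes carried 27 summits, of which 18 belonged to npr genes, 6 to dmsr genes, 2 to frpr genes and 1 to ckr-1. Of these genes 13 had 1 summit, 4 had 2 and 2 had 3, the last being npr-4 and npr-13. More than 1 summit was thus found in 31.6% of the bound receptor genes, against 20.4% of all bound protein-coding genes. The signal of a peak is the peak caller's own value for the pooled replicates, on a scale that serves to rank peaks within a list. It ran over the 27 summits between 85.4 and 439.9 with a median of 117, against a median of 138 and a highest value of 1404 over all 4780 peaks. Of the 27 summits 9 were among the 2390 strongest optimal peaks and 18 among the 2390 weakest. Receptor gene peaks were therefore mostly of modest signal.

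**Figure D2:**
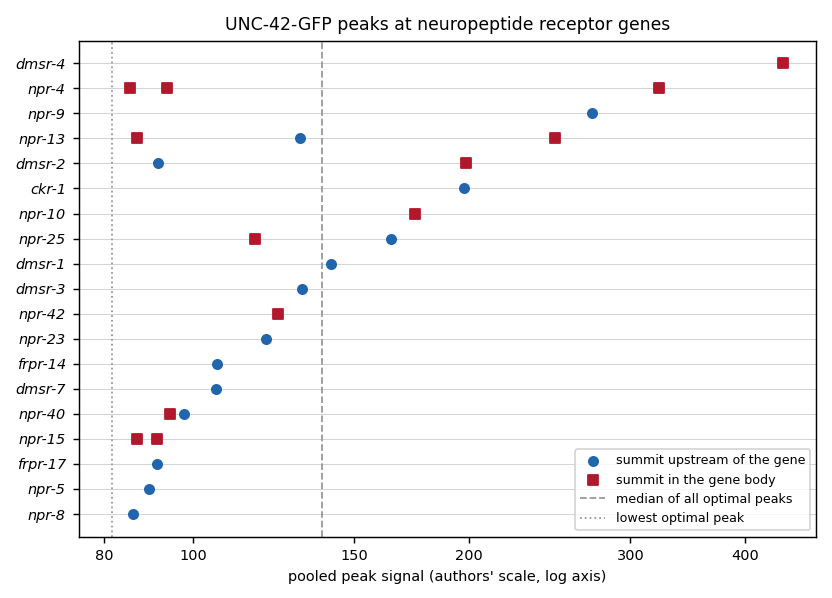
Pooled signal (x axis, the authors' scale, log axis) of the 27 optimal summits at the 19 bound receptor genes (y axis, ordered by their strongest summit). Blue circles are summits upstream of the gene and red squares summits in the gene body, the dashed line is the median of all optimal peaks and the dotted line their lowest signal, 81.6. Of the 27 summits 9 lie to the right of the dashed line, and the strongest is that of dmsr-4 at 439.9.

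The highest signals were at dmsr-4 and npr-4, in each case in an intron. The dmsr-4 gene (WBGene00017038, chrII:348173-357069, minus strand) encodes a myosuppressin receptor-like protein. Its summit had a pooled signal of 439.9 at rank 165 of 4780. In replicate 1 the signal was 211.3 at rank 144, and in replicate 2 it was 226.9 at rank 209. Both replicates thus placed it near the top of their lists. It was intronic, at 2388 bp from the 5' end of dmsr-4.

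The npr-4 gene (WBGene00007635, chrX:12536978-12551684, minus strand) encodes a receptor for FLP-18 peptides. Its main summit had a pooled signal of 322 at rank 404, with 139.6 at rank 458 in replicate 1 and 181.1 at rank 389 in replicate 2. It lay 2435 bp inside the gene. The other npr-4 summits, 1250 and 4659 bp inside the gene, were among the weakest optimal peaks, with pooled signals of 85.4 and 93.8. Both were among the 4780 highest-signal regions of replicate 1 alone, at ranks 4747 and 3573, against ranks of 5112 and 5889 in replicate 2. All 3 npr-4 summits were intronic. FLP-18 is also known as a ligand of NPR-5. The npr-5 gene (WBGene00021983, chrV:276985-281716, minus strand) had 1 weak intergenic summit 1356 bp upstream, with a pooled signal of 89.6 at rank 4326, and signals of 39.7 at rank 4661 in replicate 1 and 47.3 at rank 4628 in replicate 2.

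The npr-9 gene (WBGene00013974, chrX:11329724-11332169, plus strand) encodes a galanin receptor-like protein known from the AIB interneurons. Its summit was intergenic, 805 bp upstream, with a pooled signal of 272 at rank 631. In replicate 1 it had 99.7 at rank 1033 and in replicate 2 it had 175.6 at rank 430. The replicates therefore differed in rank more than at dmsr-4 or npr-4. The same summit lay in the window of the neighbouring gene ZK455.5, but among protein-coding genes the 5' end of npr-9 was the nearest to it.

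The npr-13 gene (WBGene00013883, chrV:14852825-14858603, minus strand) had 3 summits. The strongest, with a pooled signal of 248 at rank 770, was intronic at 4126 bp inside the gene. It had 101.7 at rank 990 in replicate 1 and 143 at rank 741 in replicate 2. The summit was 548 bp upstream of the start of another annotated transcript of npr-13. The second summit lay 1024 bp upstream of the gene in intergenic sequence, with a pooled signal of 131. The third, with 86.8, lay in the 3' UTR of the gene, 5711 bp from its 5' end. Among 5' ends of protein-coding genes that of ret-1 was the nearest to it, but another annotated transcript start of npr-13 was nearer, at 1037 bp.

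Next in signal came dmsr-2, ckr-1 and npr-10. The dmsr-2 gene (WBGene00021275, chrI:2533268-2542114, plus strand) had an intronic summit 1893 bp inside the gene with a pooled signal of 199 at rank 1274. Its signal was 93.4 at rank 1185 in replicate 1 and 105 at rank 1421 in replicate 2. A weaker summit lay 194 bp upstream of the gene with a pooled signal of 91.7. The ckr-1 gene (WBGene00020712, chrI:6687349-6691671, minus strand), a cholecystokinin receptor homologue, had an intergenic summit 1235 bp upstream. Its pooled signal was 198 at rank 1291, with 70.9 at rank 2029 in replicate 1 and 121.2 at rank 1059 in replicate 2. Replicate 2 ranked the ckr-1 site higher, as it did the npr-9 site. The npr-10 gene (WBGene00008278, chrX:13018393-13032710, minus strand) had its summit 11077 bp inside the gene, the farthest from a 5' end among the 27. It was intronic, 409 bp inside an internal transcript start and within the non-coding RNA gene C53C7.7, with a pooled signal of 175 at rank 1636. Its signal was 69.5 at rank 2098 in replicate 1 and 95.6 at rank 1697 in replicate 2.

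The other bound genes had pooled signals under 165. The npr-25 gene (WBGene00011381, chrV:11349316-11352993, minus strand) had a summit 1508 bp upstream with a pooled signal of 164 at rank 1826. Its signal was 87.6 at rank 1356 in replicate 1 and 77.4 at rank 2369 in replicate 2. A weaker intronic summit of npr-25 had 117. The dmsr-1 gene (WBGene00010191, chrV:11438764-11441638, plus strand) encodes a receptor for FLP-13 peptides that acts in stress-induced sleep. Its summit lay 1145 bp upstream, within the non-coding RNA gene F57B7.6, with a pooled signal of 141 at rank 2304, and with 74.5 at rank 1857 in replicate 1 and 64 at rank 3150 in replicate 2. The dmsr-7 gene (WBGene00016428, chrV:5405353-5408386, plus strand) encodes another peptide receptor of this family. Its summit lay 1411 bp upstream, within 2 annotated non-coding RNA genes, with a pooled signal of 106 at rank 3513. Its signal was 50.5 at rank 3395 in replicate 1 and 61 at rank 3364 in replicate 2.

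The dmsr-3 gene (WBGene00012993, chrII:13340645-13356192, minus strand), the longest bound receptor gene at 15548 bp, had its summit 691 bp upstream and none in its body. The pooled signal of dmsr-3 was 132 at rank 2586, with 61.3 at rank 2554 in replicate 1 and 68.9 at rank 2841 in replicate 2. The npr-42 gene (WBGene00015299, chrII:4276202-4279268, plus strand) had an intronic summit 960 bp inside the gene, the one with the palindrome printed above. Its pooled signal was 124 at rank 2841, with 56.6 at rank 2877 in replicate 1 and 67.3 at rank 2954 in replicate 2. The npr-23 gene (WBGene00021328, chrI:1062293-1065297, plus strand) had its summit 114 bp upstream, the closest to a 5' end. That summit also lay in an intron of a protein-coding gene and in the window of vps-4. It had a pooled signal of 120 at rank 2962, with 59.5 at rank 2679 in replicate 1 and 68.5 at rank 2880 in replicate 2.

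The remaining bound genes were frpr-14, npr-40, npr-15, frpr-17 and npr-8, whose strongest summits had pooled signals between 86 and 106. The frpr-14 summit lay 197 bp upstream and in the window of K07E8.7 as well. The npr-40 gene had an upstream and an intronic summit of nearly equal signal, 97.8 and 94.4. The frpr-17 summit lay 1829 bp upstream. The npr-15 gene had intronic summits at 733 and 1783 bp, both among the 4780 highest-signal regions of replicate 2 and not of replicate 1. Their ranks were 5307 and 8410 in replicate 1, against 3646 and 3217 in replicate 2. The npr-8 gene, known from work on immunity and cuticle collagens, had a summit 180 bp upstream, which ranked 4064 in replicate 1 and 5887 in replicate 2. Both replicates thus had these weak npr-15 and npr-8 sites, at ranks far apart.

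**Figure D3:**
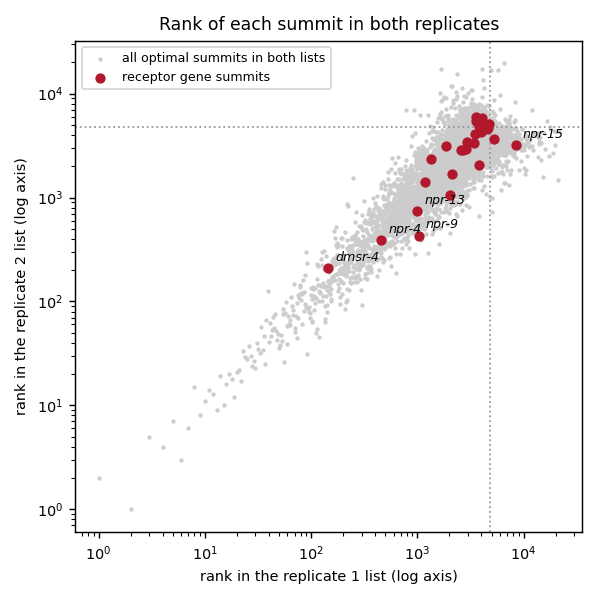
Rank of each summit in the replicate 1 list (x axis, log axis) and the replicate 2 list (y axis, log axis), where rank 1 is the highest signal. Red points are the 27 receptor gene summits, grey points the 4596 optimal summits found in both lists, and dotted lines mark rank 4780. Of the red points 20 lie within rank 4780 in both replicates, and dmsr-4 is the strongest of the receptor gene summits in each.

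All 27 summits had a counterpart within 100 bp in both replicate lists, as did 96.2% of all optimal summits. Within the 4780 highest-signal regions of each list, 20 of 27 (74.1%) were found in both replicates, against 76.8% of all optimal summits. The other 7 were found in 1 replicate only. Ranks over the 27 summits had a Spearman's rho of 0.79 between replicates, against 0.79 over the 4596 optimal summits in both lists. These are descriptions across sites that were selected on the pooled signal and share a control file. Replicate 1 ranked 17 of the 27 summits higher, and replicate 2 ranked 10 higher.

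A larger share of receptor gene summits than of all optimal summits lay in introns, a difference that was not tested. Of the 27 summits 13 (48.1%) were in introns of protein-coding genes, against 28.2% of all optimal summits, and 11 (40.7%) were intergenic, against 59%. A further 2 lay in genes of other biotypes alone, 1 in a 3' UTR and 0 in coding exons. Relative to the receptor genes themselves, 14 summits (51.9%) were upstream, against 67.3% of the 5185 gene and summit pairs over all genes. Receptor genes are long, with a median of 3828 bp against 2027 bp for all protein-coding genes, which gives a summit more room inside them. The part of length in the intronic share was not tested. Of the 19 bound genes 10 had summits upstream only, 5 inside only and 4 in both places. Gene bodies alone thus held a summit in 9 of the 81 receptor genes (11.1%), against 5.44% of all protein-coding genes.

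**Figure D4:**
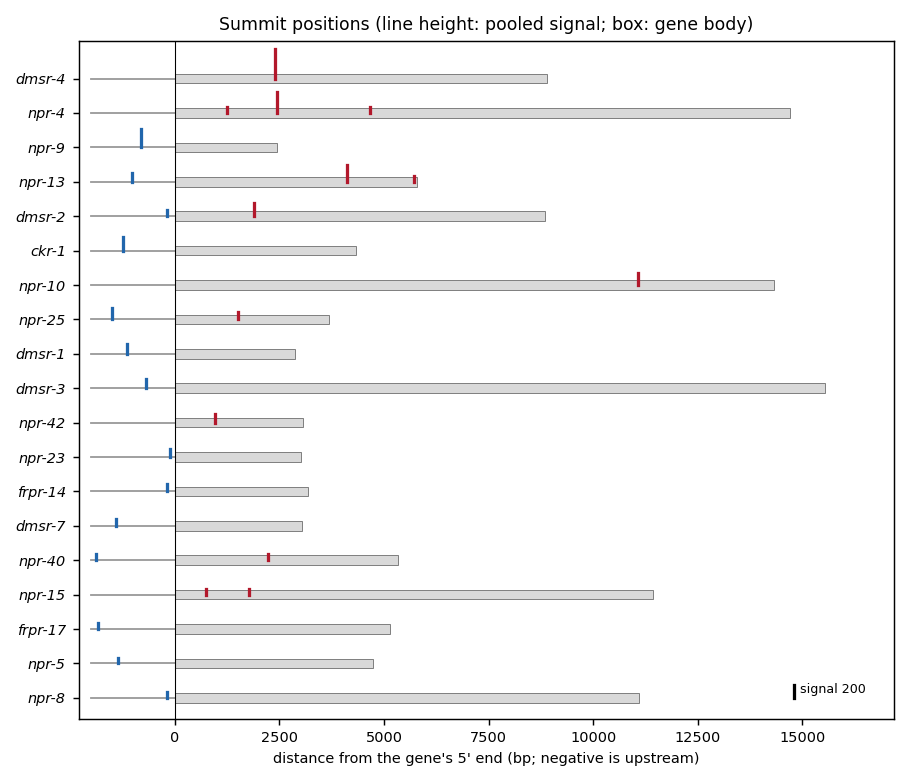
Positions of the 27 summits relative to the gene's 5' end (x axis, bp, negative is upstream) for each bound receptor gene (y axis, ordered by strongest signal). Boxes are gene bodies to scale, grey lines the 2000 bp upstream, and the height of a blue (upstream) or red (in gene) line is the pooled signal, with a bar for a signal of 200. Upstream summits lie between 114 and 1873 bp away, and the npr-10 summit lies 11077 bp inside the gene.

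The upstream summits lay between 114 and 1873 bp from the 5' end, with a median of 1084.5 bp. In all 14 cases the receptor gene's 5' end was the nearest among protein-coding genes, and 5' ends of non-coding RNA genes were not considered. The summits inside genes lay between 733 and 11077 bp from the 5' end, with a median of 2230 bp. Of these 13, 1 was within 500 bp of an annotated transcript start of its gene, that of npr-10. Of the 27 summits 24 (88.9%) fell in the window of no other protein-coding gene, against 69.6% of the optimal summits that fell in any window. The exceptions were the summits of npr-9, npr-23 and frpr-14. That count covers windows of protein-coding genes alone. The summits of dmsr-1, dmsr-7 and npr-10 lay inside annotated non-coding RNA genes. The third npr-13 summit was nearer to the 5' end of ret-1, at 5479 bp, than to that of npr-13. It was nearer still, at 1037 bp, to another annotated transcript start of npr-13. With summits in the window of more than 1 protein-coding gene left out, 16 receptor genes were bound (19.8%), against 8.91% of all protein-coding genes. That count kept dmsr-1, dmsr-7 and npr-10.

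Bound receptor genes were longer than the others, with a median of 5142 bp against 3621 bp for those not bound. The same held over all protein-coding genes, with 3096 bp for bound genes against 1880 bp for the rest. Among genes of 3637 bp or more, 13 of 44 receptor genes were bound (29.5%), against 34.1% of all genes of that length. From 2028 to 3636 bp, 6 of 26 were bound (23.1%), against 17.8%. From 1216 to 2027 bp, 0 of 11 were bound, against 12.6%. No receptor gene was shorter than 1216 bp.

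Chromosomes V and X held most of the receptor genes, 25 and 23. On chromosome V 5 of 25 were bound (20%), against 11.6% of all protein-coding genes there, and on X 6 of 23 (26.1%), against 21.8%. On chromosome II 4 of 12 were bound (33.3%), against 19.2%, on III 1 of 6 (16.7%), against 27.6%, and on I 3 of 4 (75%), against 26%. On chromosome IV 0 of 11 were bound, against 18.5% of all genes there.

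The 62 receptor genes without an optimal summit included several with well-known roles. No entry lay in the window of npr-1 (WBGene00003807, chrX:4767152-4769985), the neuropeptide Y receptor-like gene that suppresses aggregation and feeding in groups, in the pooled or either replicate list. The same was true of npr-11 (WBGene00016110, chrX:1251815-1255647), a receptor for NLP-1 in an olfactory circuit, and of frpr-3 (WBGene00016149, chrV:7771261-7773269), an FMRFamide-type peptide receptor. The frpr-4 gene (WBGene00016909, chrII:5250920-5255535), another receptor for FLP-13, had 1 entry in the replicate 2 list, with a signal of 17.2 at rank 17269, and none in the replicate 1 or pooled list. The ckr-2 gene (WBGene00021439, chrIII:2009299-2021595), a receptor for NLP-12, had relaxed entries only, the strongest with a pooled signal of 41.3 at rank 10744. Its strongest entries had 19.4 at rank 13467 in replicate 1 and 23.2 at rank 11146 in replicate 2. The npr-17 gene (WBGene00015559, chrIII:7990715-7996453), an opioid receptor-like gene, had a pooled signal of 64.6 at rank 6240, with 31 at rank 6515 in replicate 1 and 31.3 at rank 7500 in replicate 2.

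**Figure D5:**
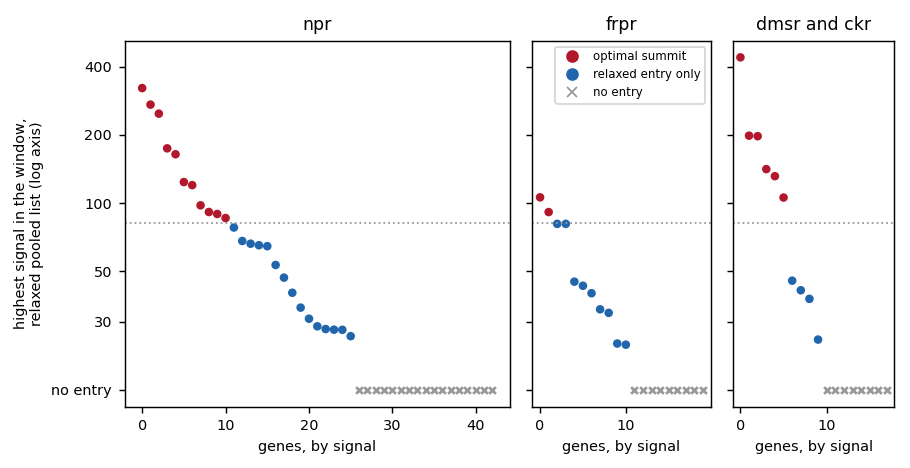
Highest signal of any relaxed pooled entry in the window of each of the 81 receptor genes (y axis, log axis), with genes in order of signal along the x axis, by family. Red points are genes with an optimal summit, blue points genes with relaxed entries only, grey crosses genes with no entry, and the dotted line is the lowest optimal signal, 81.6. Of the 62 genes without an optimal summit 34 are crosses, and the blue points reach 81.1.

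The relaxed pooled list holds 23778 regions, background included. It had an entry in the window of 47 of the 81 receptor genes (58%), against 52.6% of all protein-coding genes. Of the 62 not bound, 28 had such an entry (45.2%), against 41% of all protein-coding genes not bound. Their strongest entries had signals between 23.8 and 81.1 with a median of 40.2. Both replicate lists had an entry for 25 of the 62, 1 replicate list for 15, and 20 had none in any of the 3 lists.

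Some genes fell just short of the threshold or of the window. The relaxed entry with the highest signal among the genes not bound, 81.1 at rank 4821, lay 41 places past the last optimal peak and in the windows of both frpr-12 and frpr-13. It ranked 4549 in replicate 1 and 5156 in replicate 2. The next were npr-26 at 78.1, npr-16 at 68.1, npr-35 at 66.3, npr-38 at 65.2 and npr-17 at 64.6. On the other side of the threshold the weakest bound gene was npr-8, at 86. The npr-32 gene lay outside by distance, with an optimal summit of signal 155 at 2036 bp upstream, and in replicate 1 the corresponding summit stood at 1998 bp, with a rank of 1596. The nearest optimal summit of npr-16 lay 2928 bp upstream. The upstream summits closest to the limit were those of npr-40 and frpr-17, at 1873 and 1829 bp. The npr-40 gene also had a summit in its body, so it did not depend on the limit.

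Sequence motifs at the receptor gene summits were close in share to those of all optimal summits. Each was sought on both strands within 100 bp of the summit. The core TAAT was at 22 of 27 summits (81.5%), against 76% of all optimal summits. TAATTA, which contains TAAT, was at 2 (7.41%), dmsr-1 and npr-25, against 10.9%. The palindrome TAATNNNATTA was at 1 (3.7%), npr-42, against 1.88%. The repeat GAGAGAGA was at 3 (11.1%), the strongest npr-13 summit, the npr-5 summit and the npr-4 summit 1250 bp inside the gene, against 11.7%. A match describes the letters in the window and is not shown to be a binding site. GC content had a median of 39.3% at the 27 summits, against 41.8% at all optimal summits.

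The wider peptide signalling pathway was counted by the same rule, beside the 19.6% of all protein-coding genes. Of 27 other neuropeptide receptor genes 3 were bound (11.1%, interval 2.35 to 29.2%). These were pdfr-1, the receptor for pigment-dispersing factor peptides, with a strongest signal of 307 at 5007 bp inside the gene, sprr-1 with 112 and gnrr-4 with 81.9. Of the peptide ligand genes, 5 of 31 flp genes (16.1%, interval 5.45 to 33.7%) and 10 of 71 nlp genes (14.1%, interval 6.97 to 24.4%) were bound. The strongest were flp-22 with 169, flp-18 with 117 and flp-1 with 109, and nlp-14 with 490, nlp-76 with 230 and nlp-11 with 221. Of 11 genes for peptide processing and dense-core vesicle release 10 were bound (90.9%, interval 58.7 to 99.8%), all but the peptide amidation gene pghm-1. They included egl-3, the proprotein convertase, with 417, hid-1, a gene for dense-core vesicle traffic, with 289, and unc-108, the Rab2 gene, with 284. Of 12 G protein genes and regulators 6 were bound (50%, interval 21.1 to 78.9%), led by eat-16, an RGS protein that restrains Gq signalling, with 612, gsa-1, which encodes Gs alpha, with 546, and egl-30, which encodes Gq alpha, with 351. The intervals of the processing list and the G protein list lay above 19.6%, while those of the other receptors, the flp genes and the nlp genes included it. Such intervals cover counting error only and do not allow for a choice of genes made with results known. Gene length differed between the lists, with medians of 3744 bp for processing and release and 5676 bp for G proteins and regulators. The medians were 1186 bp for flp genes and 860 bp for nlp genes. For the npr, frpr, dmsr and ckr genes the median was 3828 bp, against 2027 bp for all protein-coding genes. Of all genes of 3637 bp or more 34.1% were bound, and of those up to 1215 bp 14% were. The part of length in the shares of these lists was not tested. The difference between these lists was not tested, and their genes were chosen with earlier results of these data known.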

How the data were processed

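ChIP-seq peaks of tagged UNC-42 were read in 2 biological replicates. Per the deposited text files, the authors made relaxed region lists for each replicate (22676 and 20932 regions) and for the pooled replicates with 1 control file, and an optimal IDR set from them. Column 7 of the deposited lists is a signal from the peak caller that ranks regions within a list, and all 4780 optimal peaks were the first 4780 of the pooled list by it. Which aligner and peak caller were run is not given in the sources used here. No read counts were used, so depth is unknown. Lists on ce11 were used, and ce10 lists were not analysed here.

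Summits (start plus offset, 1-based) were assigned to windows of gene body and 2000 bp upstream (Ensembl release 115, Python 3.11.15, pandas 2.3.3, scipy 1.17.1). The assignment and motif search were tested on simulated data. With 1 group and peak lists only, no test was run, and shares have 95% Clopper-Pearson intervals. Of 30 other receptors listed, 27 were found by symbol. Values are given for the 12 bound members with the highest pooled signal and for members with published roles, bound or not. Also named are the other bound members, the unbound members whose relaxed entries were the strongest, genes at the limits of the rule, and up to 3 bound genes per other list. The genes and lists were chosen with earlier results of these data known. Other windows, thresholds and single replicates were tried as alternatives. For a single replicate its highest-signal regions were used, as many as there are optimal peaks, without an IDR threshold.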

Additional observations from a re-analysis of the deposited data

How the results depend on the processing

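The share of bound receptor genes stayed near that of all genes where the rule was varied in most ways, and counts changed most with the threshold and the window. How the share stood to that of all genes also depended on the rule. It lay farthest above it with gene bodies alone, windows of 1 gene alone, the nearest 5' end, and without replicate 2. These differences were not tested. The 2390 strongest optimal peaks gave 9 bound receptor genes (11.1%, against 11% of all protein-coding genes), with 5 npr, 0 frpr and 3 dmsr genes and 1 other receptor. Gene bodies alone gave 9 (11.1%, against 5.44%), with 7 npr, 0 frpr, 2 dmsr and 0 ckr genes and 1 other receptor. The relaxed pooled list gave 47 (58%, against 52.6%), with 26 npr, 11 frpr, 8 dmsr and 2 ckr genes and 15 other receptors. With 1000 bp upstream there were 14 (17.3%, against 16%), with 1 frpr, 3 dmsr and 0 ckr genes and 1 other receptor, and with 5000 bp there were 21 (25.9%, against 27.8%), with 7 other receptors. Summits in the window of 1 protein-coding gene alone gave 16 (19.8%, against 8.91%), with 1 frpr gene. The nearest 5' end of a protein-coding gene within 2000 bp gave 17 (21%, against 12.5%). Summits within 2000 bp of a 5' end on either side gave 17 (21%, against 18.7% of all genes). Any overlap of the peak interval gave 19 (23.5%, against 21%), and summits shared by the strongest regions of both replicates gave 17 (21%, against 16.1%).

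Leaving out a replicate meant using the highest-signal regions of the other, as many as there are optimal peaks, without an IDR threshold. Without replicate 1 there were 20 bound receptor genes (24.7%, against 19.4% of all genes), npr-8 being lost and npr-26 and dmsr-15 gained. Without replicate 2 there were 22 (27.2%, against 19.3%), npr-15 being lost and frpr-12, frpr-13, npr-16 and npr-32 gained. The range over both was 20 to 22, with 11 to 12 npr, 2 to 4 frpr, 5 to 6 dmsr and 1 ckr genes and 2 to 3 other receptors. The frpr count thus rested on which replicate was used, 4 of 20 without replicate 2. The frpr genes gained there share 1 region, which ranked 4549 in replicate 1 and 5156 in replicate 2. Summits shared by both replicate lists numbered 24 of 27 at 50 bp and 27 at 200 bp. The palindrome share was 0 of the 9 member summits among the 2390 strongest peaks (0%), since npr-42 is not among them. Other causes were not tested. No paired analysis was possible because there was 1 group. Depth is unknown, so no limit from it can be given.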
